A study of Papio anubis with 34 samples.

Results

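Among 33 prefrontal cortex libraries of female olive baboons (Papio anubis), the level of FOS differed 9.10-fold between the highest and the lowest library. The 8 libraries with the highest FOS level (called high-FOS here) were compared with the 8 with the lowest (low-FOS), 16 of the 34 libraries in the series. The groups were therefore selected on a measured value and not on a label. FOS is described below and was left out of every gene-by-gene test, while its correlation with age was tested. The other 17 libraries lie in between and served as libraries that neither group uses. A test of another gene asks whether its level went with that of FOS across animals, in RNA from the same piece of tissue.

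Every animal was female, ate monkey chow without restriction and had no labelled treatment, and age was the only variable that differed in the labels. The tissue was frozen at necropsy, and 1 library was made per animal, so each library is an animal. The study was made to follow the cortical transcriptome through normal ageing. For naming only, libraries carry the age band of their animal (younger, middle or older) and a replicate number. The high-FOS libraries came from 3 younger, 3 middle and 2 older animals aged 8.73 to 21.29 years (mean 13.8 ± 4.36 years, SD, n = 8). The low-FOS libraries came from 4 younger, 3 middle and 1 older animal aged 10.18 to 20.91 years (mean 14.4 ± 4.07 years, SD, n = 8). The library labelled younger replicate 8 was left out. Levels are given in CPM, a gene's counts scaled to the total of its library. In that library the liver gene ALB stood at 58745 CPM, against at most 19.0 CPM in the other 33. SLC17A7, the glutamate transporter of cortical neurons, stood at 0.0466 CPM, against 371 to 1028 CPM elsewhere. Its FOS level was 6.95 CPM.

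FOS is an immediate early gene, a class whose transcription in neurons starts within minutes of synaptic input and needs no new protein. Calcium entry and the ERK kinase cascade activate the factors CREB and SRF, which sit ready on these promoters. The products include transcription factors of the AP-1 (FOS and JUN), EGR and NR4A families and NPAS4. These factors then switch on delayed genes of synapses and secreted signals, while phosphatases of the DUSP family turn the kinases off again. Many immediate early genes also answer to injury, growth factors, handling and lack of oxygen in glia and vessels, and their messengers are short-lived. Heat shock, glucocorticoid and hypoxia responses are separate stress programmes with their own factors.

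FOS stood between 24.2 and 33.1 CPM in the high-FOS libraries, with a median of 27.8 CPM. The highest was younger replicate 2 (33.1 CPM), followed by younger replicate 10 (30.9), older replicate 4 (29.8), middle replicate 5 (29.5), younger replicate 1 (26.01), older replicate 7 (24.6), middle replicate 2 (24.3) and middle replicate 9 (24.2). In the low-FOS libraries FOS stood at 8.53 CPM in middle replicate 10, 8.42 in middle replicate 4, 7.60 in middle replicate 11, 6.70 in younger replicate 11, 6.67 in older replicate 11, 5.98 in younger replicate 3, 4.92 in younger replicate 6 and 3.64 in younger replicate 9. The ratio of the group medians was 4.15. The library next below the high-FOS group, older replicate 1, had 22.7 CPM, and the one next above the low-FOS group, younger replicate 5, had 9.49 CPM. These levels rest on 84 to 465 FOS counts in a high-FOS and 16 to 60 in a low-FOS library. The 95% exact Poisson intervals, which cover counting error only, were 20.3 to 28.7 CPM for middle replicate 9 and 19.96 to 25.8 CPM for older replicate 1. At the lower border they were 5.91 to 11.9 CPM for middle replicate 10 and 7.64 to 11.7 CPM for younger replicate 5. FOS thus ran as a gradient with no gap at either border.

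**Figure D1:**
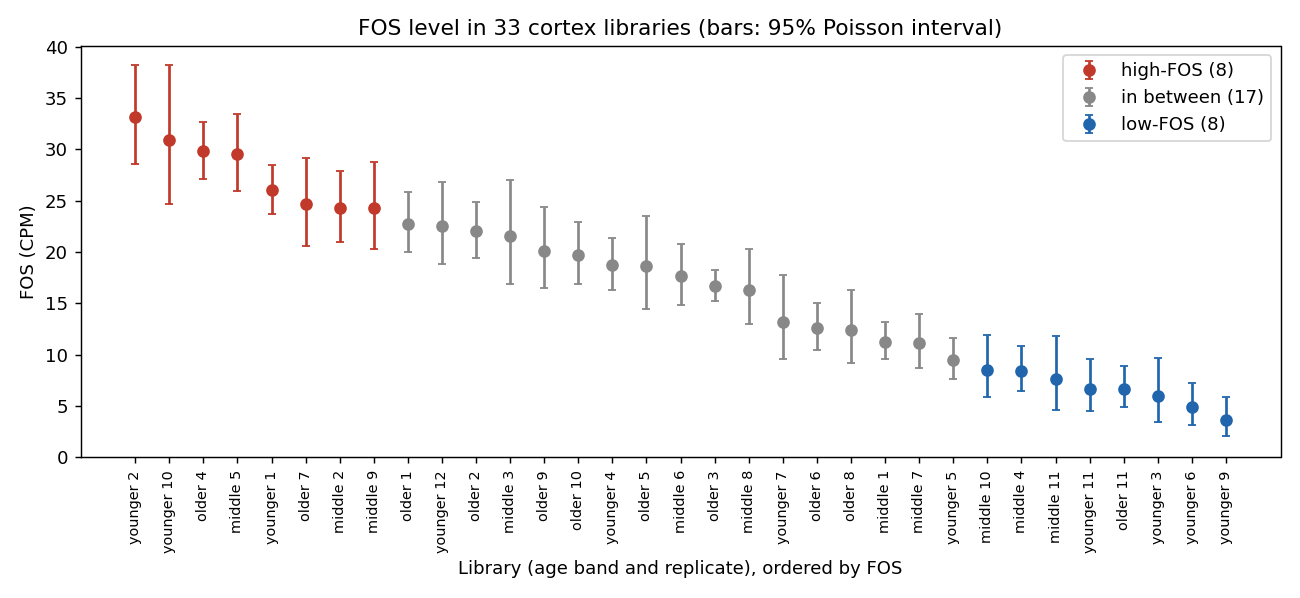
FOS level (CPM) in each of the 33 libraries, ordered from high to low and named by age band and replicate. Points are libraries, bars the 95% exact Poisson intervals, and colours the 8 high-FOS, 17 in-between and 8 low-FOS libraries. The intervals of neighbours overlap at both borders, and the high-FOS and low-FOS medians are 27.8 and 6.69 CPM.

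FOS did not track age detectably in these animals. Over the 33 libraries the correlation of log2 FOS CPM with age was r = 0.09 (Pearson, permutation p = 0.598) and rho = 0.04 (Spearman, permutation p = 0.817). The mean age difference, high-FOS minus low-FOS, was -0.51 years, and an exact two-sided permutation test gave p = 0.812. Library size differed more. Totals were 2718702 to 17722043 estimated counts in the high-FOS (median 6924163) and 2500762 to 7122792 in the low-FOS libraries (median 4361052), a difference of 0.76 in mean log2 total (exact two-sided permutation p = 0.0567). A letter R of unstated meaning ends the library number in the titles of 2 of 8 high-FOS libraries (older replicate 4 and younger replicate 1), 0 of 8 low-FOS libraries and 3 of the 17 in between. Without those libraries the difference in log2 total was 0.37 (exact permutation p = 0.240), and the same 5 genes named below passed. With the letter as a covariate 4 passed, without IL27RA. Mitochondrially encoded protein transcripts took 5.07 to 11.7% of counts in the high-FOS and 5.94 to 11.1% in the low-FOS libraries. Each library is a separate animal, so the tests below weigh a difference between the groups against the spread between animals.

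Few genes passed the adjusted threshold, and most of those that did were other immediate early transcription factors. Of 15124 genes tested, 5 were higher in the high-FOS libraries (0.0331% of genes tested) and 0 were lower (0%) at an adjusted p under 0.05 (edgeR quasi-likelihood test, Benjamini-Hochberg). The 5 were JUNB, NPAS4, NR4A1, EGR4 and IL27RA, and 4 of them belong to a list of 16 AP-1, EGR, NR4A and NPAS4 factors other than FOS. At an unadjusted p under 0.05, 418 genes were higher (2.76%) and 429 lower (2.84%), which is close to even. The median log2 difference of all genes was -0.0032. With DESeq2 the calls were 8 higher and 1 lower. With limma-voom they were 2 (JUNB and NR4A1) and 0, so NPAS4, EGR4 and IL27RA did not pass there.

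The NPAS4 difference was the largest in size among the 5. NPAS4 (GeneID 100998221) is a factor of neurons that responds almost solely to calcium entry and regulates inhibitory synapses. It stood at 3.84 to 17.8 CPM in the high-FOS libraries (median 10.6) and at 0.455 to 3.999 CPM in the low-FOS libraries (median 1.55). The groups met at a single point, where younger replicate 2, with the highest FOS of all, lay just below middle replicate 11. The log2 difference was 2.80 ± 0.37 (SE; edgeR adjusted p = 0.00144). The low-FOS levels rest on 2 to 11 counts a library and the high-FOS levels on 17 to 284, so depth limits the precision of this fold.

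JUNB (GeneID 101004783), an AP-1 partner of FOS that can dampen JUN-driven transcription, separated the groups fully. It ranged from 33.6 to 58.9 CPM with a median of 40.8 in the high-FOS libraries, and from 15.7 to 25.6 CPM with a median of 22.2 in the low-FOS libraries. The log2 difference was 1.02 ± 0.13 (SE; edgeR adjusted p = 0.00144). NR4A1 (GeneID 101021171), an orphan nuclear receptor also known as NUR77, had 27.9 to 64.8 CPM (median 49.7) against 14.9 to 27.9 CPM (median 18.0). Here too younger replicate 2 was the lowest of the high-FOS libraries, and it lay marginally below younger replicate 6, the highest of the low-FOS libraries. The log2 difference of NR4A1 was 1.22 ± 0.17 (SE; edgeR adjusted p = 0.00187).

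EGR4 (GeneID 101008679), a zinc finger factor of the EGR family, also separated the groups, with 10.5 to 22.1 CPM (median 15.97) above 5.60 to 10.1 CPM (median 8.61). Its log2 difference was 0.93 ± 0.15 (SE; edgeR adjusted p = 0.0190). IL27RA (GeneID 101018566), a receptor subunit for interleukin 27 best known from immune cells and the called gene from outside the lists, had 4.57 to 11.9 CPM (median 7.32) against 1.60 to 4.77 CPM (median 2.88). All high-FOS libraries but the lowest, younger replicate 1, lay above all low-FOS libraries. The log2 difference was 1.33 ± 0.24 (SE; edgeR adjusted p = 0.0413). Markers of microglia and macrophages had a positive difference in 13 of 13 tested genes here but a positive slope on FOS in 1 of 13 in the libraries in between, and their part in this result was not tested.

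The calls differed in how far they rested on particular animals. JUNB, NPAS4 and NR4A1 passed in 16 of 16 fits that each left out 1 library, with a highest adjusted p of 0.00902 (edgeR, for NR4A1). EGR4 passed in 10 of 16 and missed without middle replicate 10, middle replicate 2, middle replicate 5, older replicate 7, younger replicate 11 or younger replicate 6 (highest adjusted p = 0.0609, edgeR). IL27RA passed in 3 of 16, without middle replicate 10, younger replicate 1 or younger replicate 9, and its highest adjusted p in edgeR was 0.143. Without younger replicate 2, the count rose to 6 and included EGR1 and NR4A3, and without younger replicate 3 it included EGR1. IL27RA also missed with age as a covariate, with the title letter R as a covariate and without robust estimation, and the other 4 genes passed in each of these fits. With log2 library size as a covariate the 3 genes JUNB, NPAS4 and NR4A1 passed, and with 6 libraries a group none did, with a smallest adjusted p of 0.119 (edgeR). NPAS4 missed with limma-voom, where JUNB and NR4A1 passed.

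Complete separation was rare. All 8 high-FOS libraries lay above all 8 low-FOS libraries for 3 of the 15124 genes tested (0.0198%), and these were JUNB, EGR4 and FOSB. For 1 of the 15124 all 8 high-FOS libraries lay below all 8 low-FOS libraries. FOSB, the closest relative of FOS, stood at 14.1 to 18.5 CPM in the high-FOS libraries (median 16.7) and at 4.01 to 13.8 CPM in the low-FOS libraries (median 8.71). Its log2 difference of 0.84 ± 0.18 did not pass the adjusted threshold (edgeR adjusted p = 0.250). ATF3, an AP-1 related factor of the stress response, was filtered out for low counts and was not tested. Its levels were 1.27 to 3.15 CPM in the high-FOS and 0.197 to 1.20 CPM in the low-FOS libraries, again without overlap. The share of 0.0198% covers tested genes only, and how many untested genes separated the groups was not counted.

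**Figure D2:**
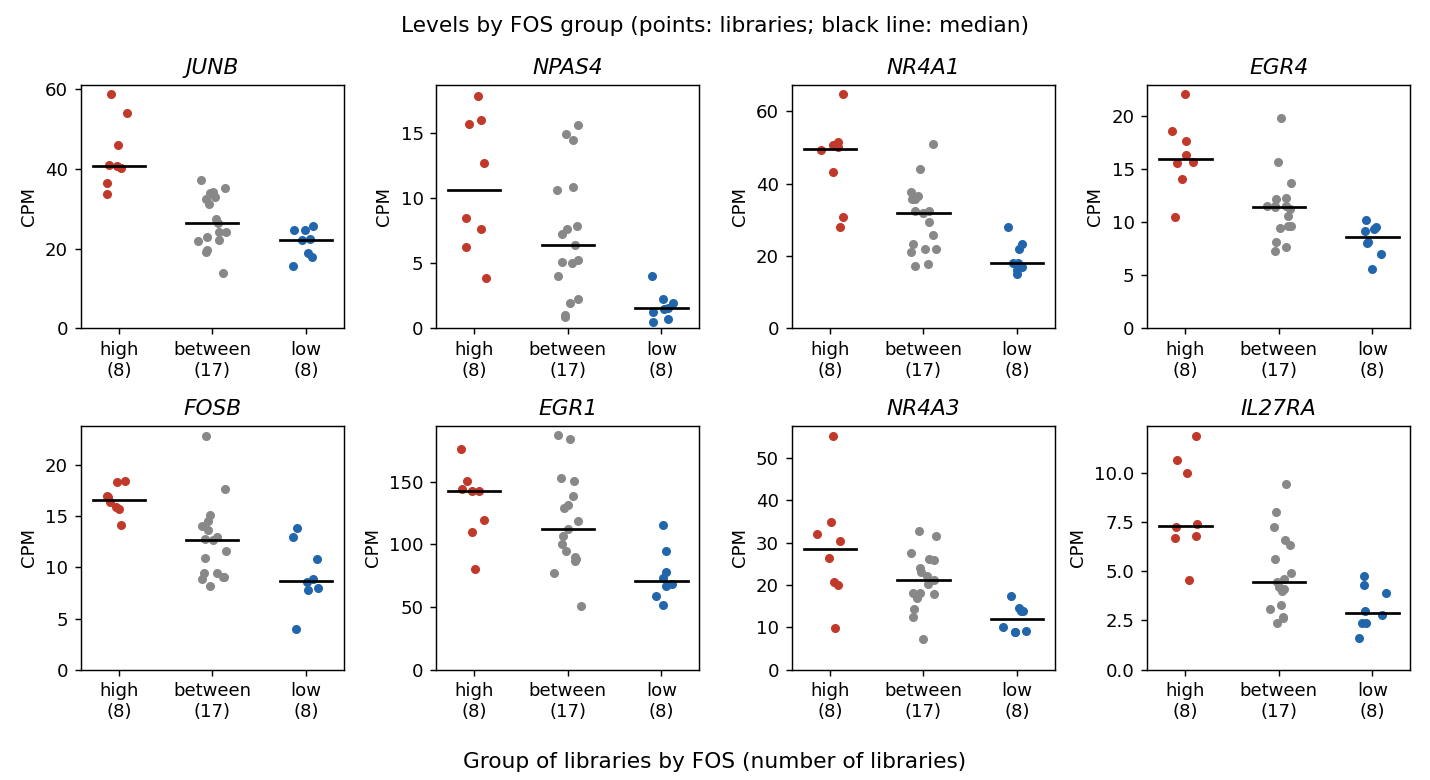
Levels (CPM, linear axes from 0) of 7 immediate early factors and IL27RA in the 8 high-FOS, 17 in-between and 8 low-FOS libraries. Points are libraries and black lines medians. JUNB, EGR4 and FOSB show no overlap between high-FOS and low-FOS, while the in-between libraries span both.

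The remaining factors had positive differences that did not pass the adjusted threshold. Of 13 tested factors, 13 had a positive log2 difference (7439 of 15124 over all genes), with a median of 0.81. Of these, 10 had an unadjusted p under 0.05 and 4 passed after adjustment. The sign of FOSL2 changed with 10 libraries a group. EGR1, a zinc finger factor of synaptic plasticity, had 80.4 to 176 CPM (median 143) against 51.8 to 115 CPM (median 70.7), with a log2 difference of 0.81 ± 0.17 (edgeR adjusted p = 0.291). NR4A3, a nuclear receptor of the same family as NR4A1, had 9.94 to 55.2 CPM (median 28.47) against 8.97 to 17.5 CPM (median 11.9), a difference of 1.21 ± 0.26 (edgeR adjusted p = 0.338). In both genes the lowest high-FOS library was again younger replicate 2.

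Members of each family that did not pass are given here, and differences between members were not tested. JUN, the main AP-1 partner, had a log2 difference of 0.41 ± 0.12 and JUND, its constitutive relative, of 0.22 ± 0.11, both short of the adjusted threshold (edgeR adjusted p = 0.820 for each). Without older replicate 4 the value for JUND was 0.12. EGR2 had a difference of 0.78 ± 0.33 (edgeR adjusted p = 0.820), which was 0.51 without younger replicate 10. NR4A2, a receptor best known from dopamine neurons, had 6.98 to 43.0 CPM in the high-FOS and 4.10 to 29.7 CPM in the low-FOS libraries (difference 0.53 ± 0.40, edgeR adjusted p = 0.834). EGR3 (0.16 ± 0.15, adjusted p = 0.858) and FOSL2 (0.08 ± 0.14, adjusted p = 0.935) did not pass in edgeR, and EGR3 was 0.07 without younger replicate 10. FOSL1 and MAFF were too low to test.

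Counting factors by library gave the same split with exceptions in both groups. Of the 13 tested factors, the number above its own median over the 33 libraries was 10 to 13 in 7 of the high-FOS libraries and 5 in younger replicate 2. In the low-FOS libraries it was 0 in middle replicate 10, 1 to 3 in 6 others and 6 in younger replicate 3. Between the groups the number ran from 1 in middle replicate 1 to 13 in younger replicate 7, whose FOS level was 13.2 CPM. Thus younger replicate 2 had high FOS without most of the other factors, and younger replicate 7 had all 13 with a middling FOS level.

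**Figure D3:**
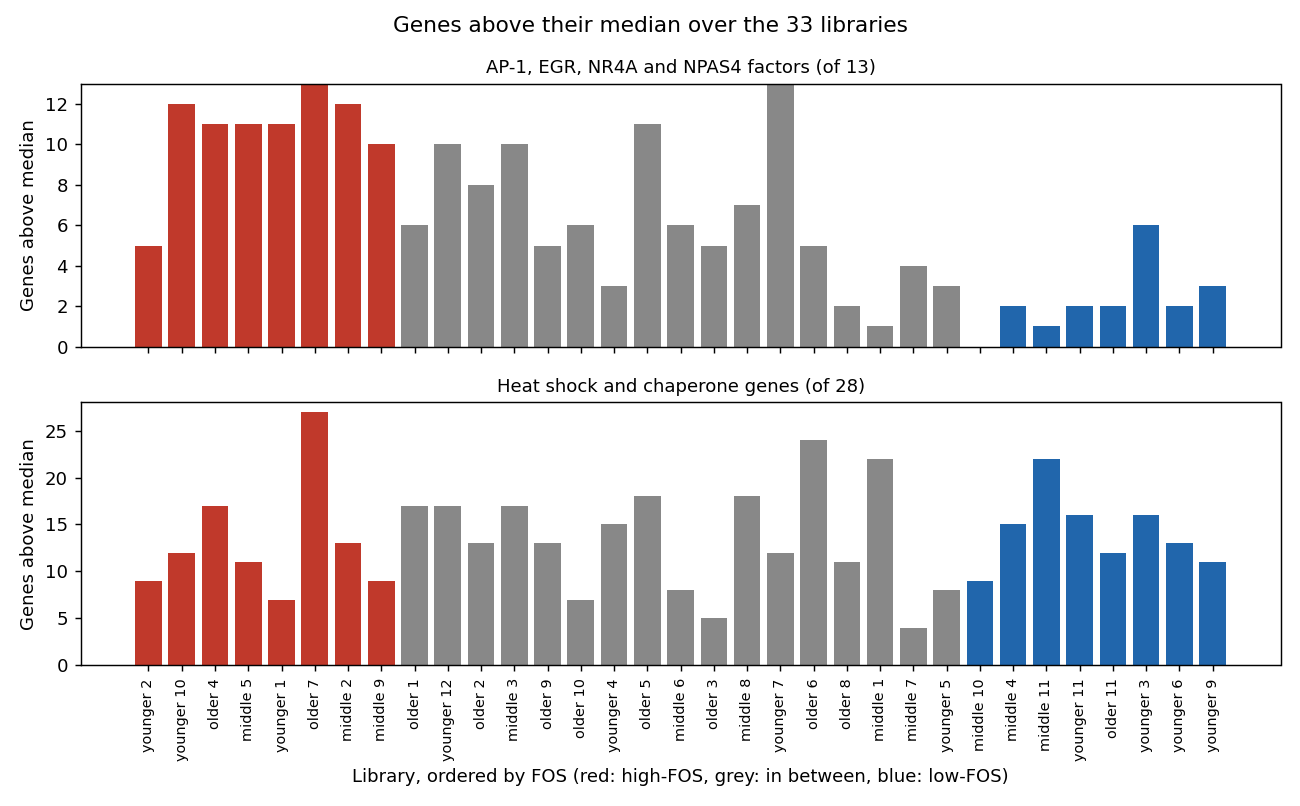
Number of genes above their own median over the 33 libraries, by library in order of FOS, for 13 AP-1, EGR, NR4A and NPAS4 factors (upper panel) and 28 heat shock and chaperone genes (lower panel). Bars are counts, coloured by FOS group. The factor counts are 5 to 13 in high-FOS and 0 to 6 in low-FOS libraries, while the chaperone counts are 7 to 27 and 9 to 22.

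The 17 libraries in between, which the groups did not use, gave a check over a narrower range of FOS (9.49 to 22.7 CPM). None of 17070 genes passed after adjustment there (edgeR, smallest adjusted p = 0.9997), nor by DESeq2 (smallest adjusted p = 0.165) or limma-voom. At an unadjusted p under 0.05, 192 genes had a positive slope on log2 FOS (1.12%) and 277 a negative one. Of the 13 factors, 4 had a positive slope at that level. The slope was 0.65 ± 0.19 log2 units per log2 unit of FOS for JUNB (edgeR unadjusted p = 0.0022), 0.82 ± 0.19 for NR4A1 (p = 0.000283), 0.85 ± 0.24 for NR4A3 (p = 0.00226) and 1.55 ± 0.58 for NPAS4 (p = 0.0153). EGR4 had a slope of -0.14 ± 0.23 (p = 0.549) and IL27RA of 0.12 ± 0.34 (p = 0.734), so neither showed a relation with FOS in these libraries that this spread could resolve. The slope was positive in 10 of the 13 factors, with a median of 0.24.

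A slope over all 33 libraries, which includes the selected ones, passed for 3 of 16686 genes with a positive sign (0.018%). They were NR4A1, NPAS4 and JUNB (edgeR adjusted p = 0.000163 for NR4A1 and 0.0014 for the other two). NR4A3 had an adjusted p of 0.0688 in that edgeR fit. Genes whose symbol starts with LOC were left out of a ranking by Spearman's rho with FOS over the 33 libraries. Among the other genes tested, the patterns most like that of FOS were those of NR4A1 (rho = 0.80), JUNB (0.79), NPAS4 (0.71), FOSB (0.68), NR4A3 (0.68) and IL27RA (0.65). All were measured in the same libraries as FOS.

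**Figure D4:**
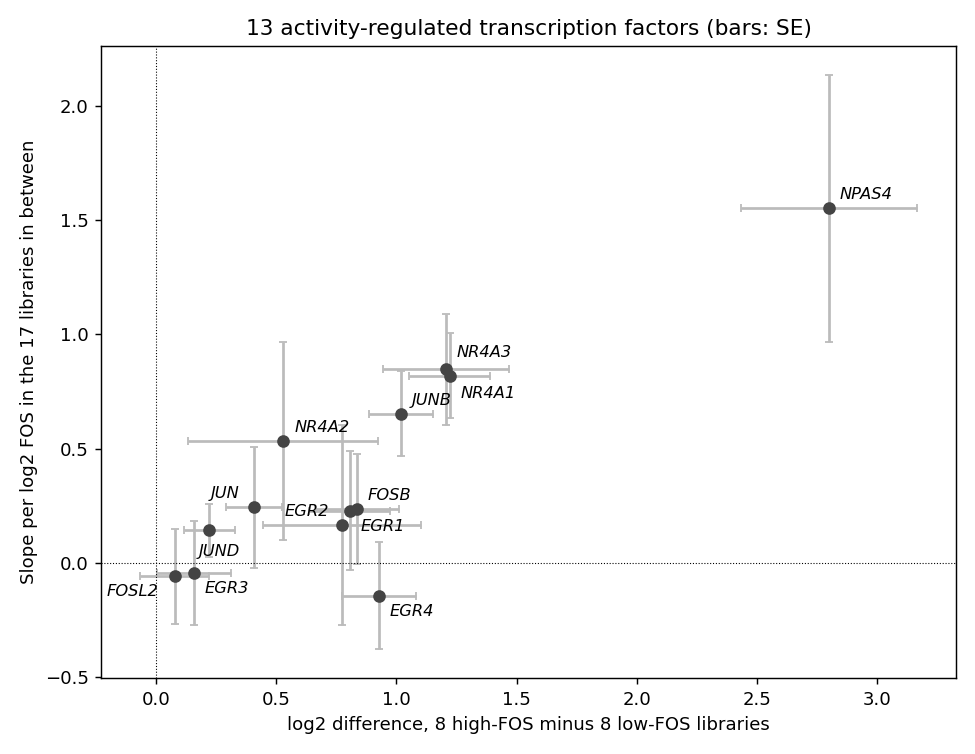
For 13 factors, the log2 difference between 8 high-FOS and 8 low-FOS libraries (horizontal) against the slope per log2 unit of FOS in the 17 libraries in between (vertical). Points are genes and bars SE. NPAS4, NR4A1, NR4A3 and JUNB are high on both axes, and EGR4 lies at 0.93 and -0.14.

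Other rapid response genes, which encode RNA-binding proteins, kinases, matrix proteins and further factors, had no member that passed. Of 34 tested, 32 had a positive log2 difference with a median of 0.31, 11 had an unadjusted p under 0.05 in the positive direction and 0 in the negative, and 0 passed after adjustment. Over all genes tested, 2.76% were higher and 2.84% lower at that unadjusted level, and 7439 of 15124 had a positive difference. The same shares stand beside the counts from the groups of 8 in the lists below. CSRNP1, a nuclear protein induced by AXIN1, had 12.4 to 24.4 CPM (median 18.8) in the high-FOS and 7.60 to 15.9 CPM (median 11.8) in the low-FOS libraries, a difference of 0.62 ± 0.16. It also had a positive slope in the libraries in between (0.38, unadjusted p = 0.0355, edgeR). BTG2, an antiproliferative regulator of RNA decay, differed by 0.64 ± 0.18, IER2 by 0.48 ± 0.14, the pseudokinase gene TRIB1 by 0.56 ± 0.16 and the kinase gene SIK1, which restrains CREB coactivators, by 0.53 ± 0.17. CTGF, a matrix-associated growth factor, differed by 1.36 ± 0.39, with 2.35 to 10.3 CPM against 0.374 to 5.11 CPM. Each of these had an edgeR adjusted p of 0.820.

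ARC, the synaptic scaffold that is the standard partner of FOS in activity mapping, was not among them. It ranged from 19.7 to 78.8 CPM (median 43.5) in the high-FOS and from 17.7 to 64.2 CPM (median 31.6) in the low-FOS libraries. The log2 difference was 0.47 ± 0.33 (edgeR adjusted p = 0.829), and the slope in the libraries in between was -0.18 (unadjusted p = 0.512). The factors of vessels and immune cells KLF4 (1.02 ± 0.34) and KLF2 (0.68 ± 0.25) had unadjusted p-values of 0.00669 and 0.0117 in edgeR. ZFP36, which destabilizes inflammatory messengers, had a difference of 0.79 ± 0.34 (unadjusted p = 0.0299).

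Genes of the feedback arm had mostly positive differences, none of which passed. Of 17 tested MAP kinase phosphatase and Sprouty-type genes, 13 had a positive difference with a median of 0.18, 4 of them at an unadjusted p under 0.05 in edgeR, and 0 passed after adjustment. DUSP6, the phosphatase of ERK, stood at 29.5 to 72.5 CPM (median 43.1) in the high-FOS and 23.8 to 37.4 CPM (median 32.3) in the low-FOS libraries, a difference of 0.58 ± 0.15 (edgeR adjusted p = 0.820). DUSP1, which acts on p38, JNK and ERK, differed by 0.50 ± 0.18 and DUSP5, a nuclear ERK phosphatase, by 0.49 ± 0.18. DUSP2, a nuclear phosphatase at low level here, differed by 1.33 ± 0.48. In the libraries in between, DUSP1 (slope 0.59, unadjusted p = 0.0141) and DUSP2 (slope 1.38, unadjusted p = 0.00684) had positive slopes that did not pass the adjusted edgeR threshold.

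No signalling gene upstream of FOS passed. Of 32 tested, 19 had a positive and 13 a negative difference, with a median of 0.03. MAPK3, which encodes the kinase ERK1, was the member with an unadjusted p under 0.05 (0.21 ± 0.10, edgeR unadjusted p = 0.0497). The calcium kinase subunits CAMK2B (0.20 ± 0.11) and CAMK2A (0.17 ± 0.10) did not reach it. SRF (-0.05 ± 0.10) and CREB1 (-0.15 ± 0.11), the factors that act on the FOS promoter, did not reach it either. SRF had 28.3 to 37.1 CPM in the high-FOS and 26.6 to 43.2 CPM in the low-FOS libraries, and CREB1 had 45.8 to 81.96 and 64.4 to 89.4 CPM.

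No delayed activity-regulated gene of neurons passed. Of 30 tested, 22 had a positive difference, the median was 0.07, 3 had an unadjusted p under 0.05 and 0 passed after adjustment. These 3 were PER1 (0.37 ± 0.11), a clock gene that CREB induces, GPR3 (0.60 ± 0.26), a constitutively active receptor, and NPTX2 (0.33 ± 0.14), a secreted pentraxin that gathers glutamate receptors. BDNF, the neurotrophin, ranged from 11.3 to 31.3 CPM in the high-FOS and from 11.7 to 26.3 CPM in the low-FOS libraries (0.22 ± 0.20, edgeR adjusted p = 0.846). HOMER1, whose short form is activity-induced, had a difference of -0.01 ± 0.16 at the level of the whole gene (edgeR adjusted p = 0.993). The secretory genes SCG2 (0.18 ± 0.12) and VGF (0.11 ± 0.19) did not pass either.

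**Figure D5:**
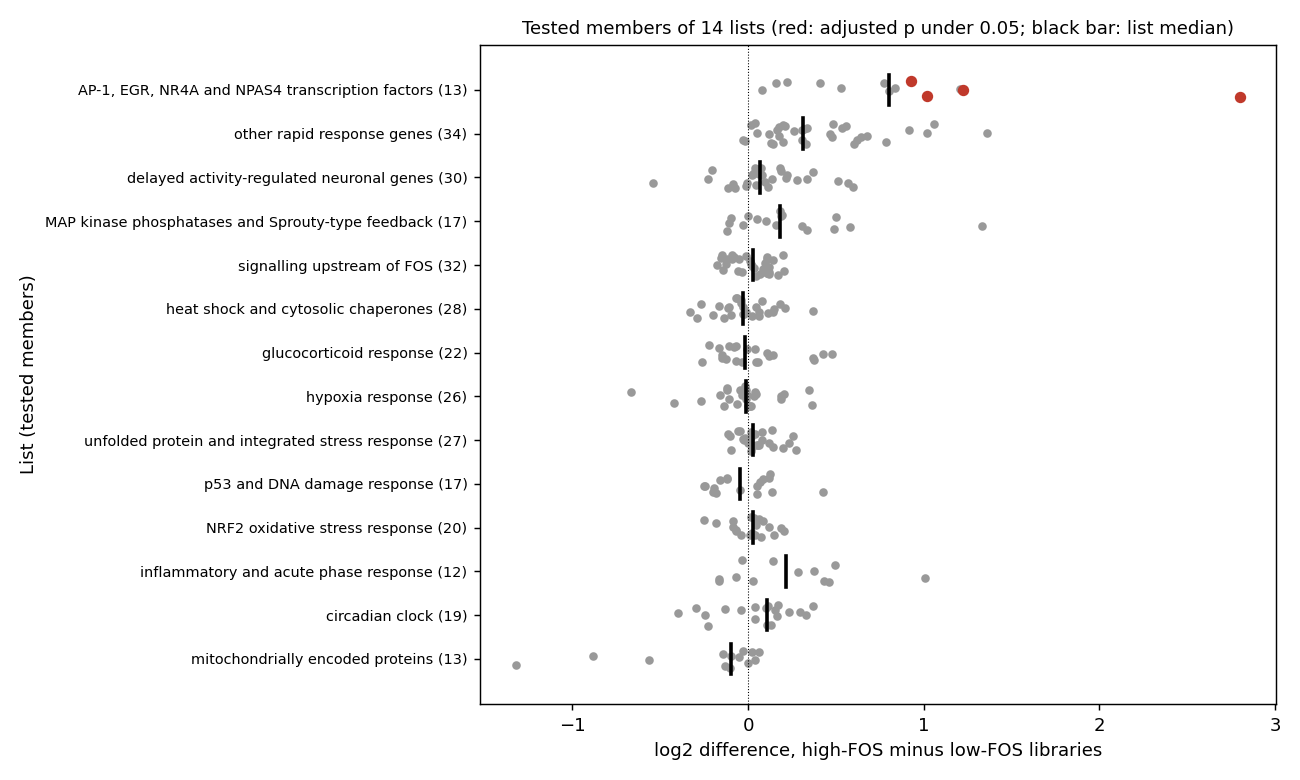
Log2 difference between high-FOS and low-FOS libraries of every tested member of 14 gene lists, with the number of tested members in parentheses. Points are genes, red points have an edgeR adjusted p under 0.05, and black bars are list medians. The 4 red genes are in the list of AP-1, EGR, NR4A and NPAS4 factors, whose median is 0.81, while the heat shock, glucocorticoid, hypoxia, unfolded protein, p53 and NRF2 lists have medians of -0.05 to 0.03 and the inflammatory list 0.21.

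No heat shock gene passed in either direction. Of 28 tested chaperone genes, 11 had a positive and 17 a negative difference, with a median of -0.03, and 0 passed after adjustment. At an unadjusted p under 0.05, 0 were higher and 2 lower in edgeR, CACYBP (-0.20 ± 0.08) and HSPA4L (-0.29 ± 0.12), a chaperone-associated protein and an HSP110-type chaperone. HSPA8, the abundant constitutive HSP70, ranged from 775 to 1038 CPM in the high-FOS and from 768 to 1092 CPM in the low-FOS libraries. DNAJB1, a heat-inducible cochaperone, differed by 0.18 ± 0.12 (edgeR adjusted p = 0.822), and HSP90AA1, the inducible HSP90, by -0.03 ± 0.08 (adjusted p = 0.966). The symbols HSPA1A, HSPA1B and HSPE1 were not matched in the file, and HSPA6 was too low to test, so the most inducible HSP70 genes are missing from this count. Per library, 27 of the 28 genes were above their median in older replicate 7, a high-FOS library, and 7 to 17 in the other high-FOS libraries.

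The glucocorticoid, hypoxia and unfolded protein lists gave medians near 0. Of 22 glucocorticoid response genes, PER1 was higher and KLF9 (-0.26 ± 0.12), a factor induced by the hormone receptor, lower at an unadjusted p under 0.05 in edgeR, and the list median was -0.02. FKBP5, the classic glucocorticoid target, had 27.6 to 71.8 CPM against 40.7 to 74.4 CPM, with a difference of -0.01 ± 0.17. Of 26 hypoxia response genes, 1 had an unadjusted p under 0.05 (INSIG2, a regulator of sterol synthesis, -0.27 ± 0.12), the median was -0.01, and VEGFA, the vascular growth factor, differed by 0.03 ± 0.15. Of 27 genes of the unfolded protein and integrated stress responses, 0 reached an unadjusted p under 0.05 and the median was 0.03. The stress factors ATF4 (-0.02 ± 0.11) and DDIT3 (-0.10 ± 0.15) and the chaperone HSPA5 (0.02 ± 0.09) were among them. PPP1R15A, which reverses the translation block, had a difference of 0.27 ± 0.16, and of 0.17 without middle replicate 4.

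Damage, oxidative and inflammatory lists also held no gene that passed. Of 17 genes of the p53 response, 1 had an unadjusted p under 0.05 in edgeR, the ribonucleotide reductase subunit RRM2B (-0.25 ± 0.11), with a list median of -0.05. Of 20 NRF2 targets 0 reached it, with a median of 0.03. Of 31 matched inflammatory genes, 12 were high enough to test, 0 reached it and the median was 0.21. The rest were too low to test, so this count does not cover them. Among them, SOCS3 had 1.30 to 5.15 CPM (median 2.74) in the high-FOS libraries. In the low-FOS libraries it had 0.251 to 1.74 CPM (median 0.862). IL1B went the other way, with medians of 0.365 and 0.587 CPM in the same order. IL6 had 0 counts in each of the 16 libraries. VCAM1, an adhesion molecule of vessels, had 2.43 to 61.0 CPM in the high-FOS and 2.51 to 14.04 CPM in the low-FOS libraries (1.01 ± 0.66), a difference that became 0.16 without younger replicate 2 and -0.15 once a fibroblast score was added to the fit.

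Clock genes were mixed. Of 19 tested, 3 were higher and 2 lower at an unadjusted p under 0.05, and 0 passed after adjustment, with a median of 0.11. PER1 ranged from 70.1 to 117 CPM against 49.2 to 85.6 CPM, and CRY2, another repressor of the clock, from 90.5 to 141 CPM against 79.98 to 112 CPM (0.30 ± 0.09, edgeR adjusted p = 0.820). NPAS2 (0.23 ± 0.11), an activator paralogous to CLOCK, leaned the same way. ARNTL, the activator also called BMAL1, had -0.25 ± 0.11 and the repressor NR1D2 -0.23 ± 0.10. The hour of necropsy is not among the labels used here. The 13 mitochondrially encoded protein genes had a median of -0.10, and 0 reached an unadjusted p under 0.05. In the libraries in between, 10 of the 13 had a positive slope on log2 FOS, with a median of 0.41, and 3 reached an unadjusted p under 0.05 in edgeR, where 1.12% of all genes did with that sign. These were the complex I subunit genes ND6 (slope 1.82, p = 0.00446), ND1 (2.13, p = 0.0190) and ND2 (5.48, p = 0.0351), and the groups of 8 gave negative differences for the same 3 genes. Their highest levels in the libraries in between lay far above the medians. ND6 had a median of 21.1 and a highest value of 217 CPM, ND1 357 and 6633 CPM, and ND2 8.81 and 6315 CPM. How far these slopes rest on single libraries was not tested.

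No gene passed in the lower direction. Among genes whose symbol does not start with LOC, TAS2R5, a bitter taste receptor gene, had the smallest p in that direction. TAS2R5 had 1.02 to 3.31 CPM in the high-FOS and 1.77 to 7.16 CPM in the low-FOS libraries. The log2 difference was -1.38 ± 0.30 (edgeR adjusted p = 0.336). USP45, a deubiquitinase of DNA repair, followed with -0.54 ± 0.13 (edgeR adjusted p = 0.579), and the homeobox gene MKX (-0.75 ± 0.20), ANKAR (-0.54 ± 0.15) and the methyltransferase gene N6AMT1 (-0.76 ± 0.21) each had an adjusted p of 0.820.

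Cell type markers were compared as well, since FOS can come from neurons, glia or vessels, and in bulk tissue fewer cells of a type and less RNA per cell cannot be told apart. The neuronal markers of cortex were present in both groups. The summed level of 12 excitatory neuron markers was 4059 to 5435 CPM in the high-FOS and 3384 to 4799 CPM in the low-FOS libraries (median log2 difference over genes 0.01), and 14 inhibitory neuron markers had a median of 0.05. No marker of any list passed the adjusted threshold. Of 14 oligodendrocyte markers, 13 had a negative difference, with a median of -0.41. Their sum ran from 896 to 11009 CPM in the high-FOS and from 1074 to 19694 CPM in the low-FOS libraries. The slope on log2 FOS was positive in 1 of these 14 in the libraries in between, with a median slope of -0.36. Of 13 microglia and macrophage markers, 13 had a positive difference (median 0.34, 1 at an unadjusted p under 0.05, the growth factor receptor CSF1R, in edgeR), with sums of 132 to 382 and 98.4 to 309 CPM. In the 17 libraries in between, 1 of the 13 had a positive slope on log2 FOS, the median slope was -0.25, and that of the complement gene C1QA was -0.75 (edgeR unadjusted p = 0.0384).

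Markers of vessels and their coverings had positive medians. The median difference was 0.17 over 13 endothelial, 0.36 over 8 mural and 0.79 over 12 tested fibroblast and meningeal markers. Of the latter, 11 of 12 were positive and 0 had an unadjusted p under 0.05 in edgeR. Their sum was 265 to 2275 CPM (median 626) in the high-FOS and 314 to 1162 CPM (median 544) in the low-FOS libraries. The endothelial sum had medians of 246 and 248 CPM in the same order, and the mural sum 304 and 297 CPM. In the 17 libraries in between, the slope on log2 FOS was positive in 4 of 12 fibroblast and meningeal markers (median -0.076). It was positive in 6 of 13 endothelial (median -0.078) and 5 of 8 mural markers (median 0.03). The fibroblast score, the mean of z-scored log2 levels of the list, was 2.12 in younger replicate 2 and 2.22 in younger replicate 10, both high-FOS, and 1.49 in younger replicate 9, which had the lowest FOS. It was at most 0.82 in the other libraries. With this score in the fit, an alternative chosen after seeing the data, the same 5 genes passed, and the difference of CTGF was 1.30 in place of 1.36. With oligodendrocyte and excitatory neuron scores in the fit the same 5 genes passed too. Blood markers had a median of 0.84 over 2 tested genes, with HBD and S100A12 at 0 in all 16 libraries. Their summed levels were 12.7 to 242 CPM in the high-FOS and 11.6 to 55.3 CPM in the low-FOS libraries. The medians of these sums, 19.4 and 24.7 CPM, went the other way. Their part, and that of microglia and choroid plexus markers (6 tested, median 0.03), was not tested. Astrocyte markers had a median of -0.07, oligodendrocyte precursor markers 0.09 and liver markers 0.15 over 3 tested genes.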

How the data were processed

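Prefrontal cortex RNA of 34 baboons was sequenced as stranded libraries depleted of ribosomal RNA, as the labels' protocols state. Tools named in the submitters' processing notes are Partek, bcl2fastq and STAR 2.5.3. The aligner settings and genome build are not given in the sources used here, so no coordinates are printed. The authors deposited estimated counts for 89424 transcripts, not normalized, and this table was used. It was summed to 35741 genes by GeneID and rounded. The 24 rows naming no gene were left out of tests and held 0.592 to 1.48% of counts in high-FOS and 0.435 to 1.14% in low-FOS libraries. The authors' normalized table was not used. FOS CPM is the count over 2 FOS transcripts divided by the column total.

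Genes were kept by filterByExpr with TMM scaling. The test was edgeR's robust quasi-likelihood F test (version 4.0.16, R 4.3.3), with FOS removed before Benjamini-Hochberg adjustment over all genes tested at 0.05. SE is the absolute log2 difference divided by the square root of F. CPM levels are scaled by column totals. Permutation tests were exact for 8 against 8 (scipy 1.17.1) and used 100000 resamples for correlations. Alternatives were RLE and upper quartile scaling, DESeq2 1.42.0, limma-voom (limma 3.58.1), other filters, covariates, group sizes and left-out libraries. The fits were tested on simulated data.

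The comparison, the gene lists and the tests were chosen with earlier results of these data known. Named genes are those of smallest p (up to 5 a direction where fewer than 10 pass), all tested factors of the AP-1, EGR, NR4A and NPAS4 list, 3 to 6 members of smallest p in the other response lists (none for mitochondrial genes), and the 6 of highest rho with FOS. Genes whose symbol starts with LOC were left out of the rankings by smallest p over all genes and by rho. ATF3, ARC, KLF2, KLF4, ZFP36, DUSP2, BDNF, HOMER1, SCG2, VGF, SRF, CREB1, HSPA8, DNAJB1, HSP90AA1, FKBP5, VEGFA, ATF4, DDIT3, HSPA5, NPAS2, NR1D2, IL6, SOCS3, IL1B, CSF1R, C1QA, ND1, ND2 and ND6 were named after their values were seen.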

Additional observations from a re-analysis of the deposited data

Results flagged for a closer look

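Within the high-FOS or the low-FOS group, 10 of 114 sets of 8 values (8.77%) held a library far from the other 7 by Dixon's criterion on log2 CPM, which chance meets in about 1 in 20 sets. Among the factors, FOSB was 4.01 CPM in middle replicate 10, below the nearest other low-FOS library at 7.83. JUND was 106 CPM in older replicate 4, above the nearest high-FOS library at 77.0, and EGR3 was 136 CPM in younger replicate 10, above 95.9. Younger replicate 10 also stood above the other high-FOS libraries in the pseudokinase gene TRIB1 (39.0 CPM, next 26.7) and the pentraxin gene NPTX2 (55.2 CPM, next 40.5). The receptor gene GPR3 was 2.44 CPM in younger replicate 2, below the next at 5.36.

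Among stress genes, middle replicate 4 stood apart from the other low-FOS libraries in PHGDH, an enzyme of serine synthesis (52.4 CPM, next 42.3), and PPP1R15A (8.28 CPM, next 13.5). Older replicate 4 was lowest of the high-FOS libraries in the p53 targets RRM2B (31.6 CPM, next 42.7) and ZMAT3 (148 CPM, next 202). Libraries that stand apart were kept. Without the library named for each gene, the log2 difference between the groups was 0.12 for JUND (0.22 with it), 0.07 for EGR3 (0.16) and 0.17 for PPP1R15A (0.27). It was 0.73 for FOSB, 0.46 for TRIB1, 0.72 for GPR3, 0.25 for NPTX2, 0.31 for PHGDH, -0.18 for RRM2B and -0.18 for ZMAT3.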

How the results depend on the processing

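Of 5 genes higher in the high-FOS libraries, the count became 8 with DESeq2, 2 with limma-voom, 3 with log2 library size as a covariate, 0 with 6 libraries a group, 3 with 10 libraries a group and 3 with a slope over 33 libraries. It was 4, without IL27RA, with age as a covariate, with the title letter R as a covariate and without robust estimation. Leaving out each library in turn gave 3 to 6, with 3 without middle replicate 2, middle replicate 5, older replicate 7, younger replicate 11 or younger replicate 6. The fewer libraries in the 6-a-group fit are part of its construction, and the cause of the other changes was not tested. No gene was lower except 1 with DESeq2 (TAS2R5). In the 17 libraries in between, 1 gene (TRIM60) had a negative slope with no filter on low counts. The age difference was 0.175 years with 10 libraries a group, against -0.51. The log2 difference of FOSL2 was -0.013 with 10 libraries a group and that of VCAM1 was -0.15 with the fibroblast score, and no other sign changed among 56 named genes. Of 1848 values of those genes under the alternatives, 1803 kept sign and side of the threshold, 36 lost the call and 7 gained one. Most of the values that kept their side belong to genes that were not called in the first place. All 36 losses fell on the 5 called genes. In the 32 alternatives other than the slope over 33 libraries, JUNB and NR4A1 passed in 31, NPAS4 in 30, EGR4 in 22 and IL27RA in 12. No paired analysis was possible because each animal gave 1 library and the replicate numbers follow the order of deposit. With 16 to 60 FOS counts in a low-FOS library, order within that group is uncertain.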
